A study of Mus musculus with 60 samples.

Results

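The genes described here are 42 genes of antioxidant defence and glutathione metabolism, named by symbol. They cover superoxide and peroxide enzymes, glutathione peroxidases, peroxiredoxins, the thioredoxin and glutaredoxin systems, glutathione synthesis and cystine uptake, the NRF2 axis, glutathione transferases and methionine sulfoxide reductases. All 42 symbols were found among the 21999 genes of the count table, and all 42 passed the low-count filter in each brain region. Polyadenylated RNA of 20 mice was sequenced from 3 brain regions, prefrontal cortex, striatum and hippocampus, with 1 library per region and mouse. Mice were wild type (WT) or carried a knockout of Glo1 (KO), the gene of glyoxalase 1. Between 8 and 12 weeks of age their food held either 1.4 mg of vitamin B6 in 100 g (normal diet) or 5 µg in 100 g (lacking diet). The 4 groups were WT on the normal diet, WT on the lacking diet, KO on the normal diet and KO on the lacking diet, each with 5 mice. Within a region, p-values measure the spread between these mice. Comparisons between regions used all 60 libraries without a term for the mouse, which was added as a block in an alternative. The strain, the sex and the way the knockout was made are not given in the sources used here. All KO libraries carried batch number 1 and all WT libraries batch number 2, so that genotype and batch cannot be told apart in any KO comparison below.

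Methylglyoxal is a reactive carbonyl formed as a by-product of glycolysis, and glyoxalase 1 removes it after it has joined with glutathione. Glutathione is made from glutamate, cysteine and glycine, is oxidised when glutathione peroxidases reduce peroxides, and is returned to its reduced form by glutathione reductase. The transcription factor NRF2 (gene Nfe2l2) is held in check by KEAP1, and when released under oxidative or electrophilic stress it drives many genes of this group through antioxidant response elements in their promoters. In the brain, much of this glutathione metabolism is known to take place in astrocytes.

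The core of the antioxidant response element, TGACNNNGC, was searched on both strands from 250 bases before to 50 bases after each transcription start in RefSeq promoters of build GRCm38.p6. Of the 42 genes, 35 were matched to a promoter, and 9 of these (25.7%) held the core, against 14.0% of all genes in the same promoter table. A gene can have several promoters, and per promoter the shares were 9 of 48 (18.75%) and 12.4%. In 7 of the 9 genes the core lay before the start. These 7 windows are shown because they include NRF2's own gene and members whose levels differed between regions. Each is written 5′ to 3′ on the strand that reads TGAC, with the core in capitals.
Nfe2l2, chr2:75704885-75704913, minus strand: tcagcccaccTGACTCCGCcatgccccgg
Gclm, chr3:122245413-122245441, minus strand: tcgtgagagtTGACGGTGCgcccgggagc
Txnrd1, chr10:82859104-82859132, minus strand: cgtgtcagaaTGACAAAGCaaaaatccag
Prdx1, chr4:116685456-116685484, minus strand: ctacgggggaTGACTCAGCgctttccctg
Sod1, chr16:90220696-90220724, minus strand: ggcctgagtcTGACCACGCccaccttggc
Gstm5, chr3:107895802-107895830, plus strand: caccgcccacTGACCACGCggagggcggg
Gstm7, chr3:107931725-107931753, minus strand: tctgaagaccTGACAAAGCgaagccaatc
Txnrd1 and Gstm7 shared the same 9-letter core, as did Sod1 and Gstm5. In Srxn1 and Msrb2 the core lay after the start. A match is a description of these letters and not evidence of binding.

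Library totals ranged from 7640047 to 13928265 counts, and RNA integrity numbers from 7.6 to 9.3. Vitamin B6 was 58.3 to 78.1 ng/µl in mice on the normal diet and 2.25 to 5.63 ng/µl on the lacking diet. Glo1 had 0 to 10 counts in the 30 KO libraries and 299 to 734 in the 30 WT libraries. The regional markers were highest in the tissue named on the labels, with summed striatal markers at 7865 to 10400 CPM (counts scaled to library size) in striatum and 133 to 281 CPM elsewhere. The hippocampal libraries differed in choroid plexus RNA: Ttr, its most abundant transcript, ranged from 2.60 to 1460 CPM and reached 100 CPM in 8 of them, 2 in each group. In bulk tissue, fewer cells of a type and less RNA per cell cannot be told apart.

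Levels are given as RPKM (reads per kilobase of gene length, scaled to library size), which allows genes to be compared per length. The group spanned more than 100-fold. Sod1, the cytosolic superoxide dismutase, was highest, with means of 105 ± 7.33 RPKM in prefrontal cortex, 129 ± 9.02 in striatum and 108 ± 7.63 in hippocampus (SD, n = 20). Sod2, the mitochondrial enzyme, lay near 62 RPKM in every region, and the mu-class glutathione transferase gene Gstm5 at 53.2 to 73.6. Of the 75-base stretches of Sod2 transcripts, 16.2% also occur in other genes, so its counts are uncertain. At the low end were Txnrd2 (mitochondrial thioredoxin reductase), Gss (glutathione synthetase), Hmox1 (inducible heme oxygenase) and Gpx7, with regional means of 0.664 to 1.11 RPKM. The pooled SD between mice of a group, on the log2 scale, was smallest for Gclc (0.09) and Sod1 (0.09) and largest for Sod3, the extracellular superoxide dismutase (0.42), Txnrd2 (0.41) and Hmox1 (0.41).

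Cat, the gene of peroxisomal catalase (chromosome 2, 103453849 to 103485160, minus strand), was the member that differed between genotypes. In prefrontal cortex it measured 45.6, 44.8, 38.8, 39.4 and 46.8 RPKM in the 5 WT mice on the normal diet and 43.4, 33.9, 53.4, 44.6 and 46.6 in the 5 WT mice on the lacking diet. The KO mice gave 41.5, 44.4, 34.5, 33.4 and 32.5 RPKM on the normal diet and 31.8, 32.4, 34.4, 29.5 and 32.0 on the lacking diet. All 5 KO mice on the lacking diet lay below all 5 WT mice on the normal diet, whereas they overlapped with the WT mice on the lacking diet, whose lowest value was 33.9. On the normal diet the genotypes overlapped, with 2 KO mice within the WT range. The share of all genes without overlap between these groups is not given here.

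**Figure D1:**
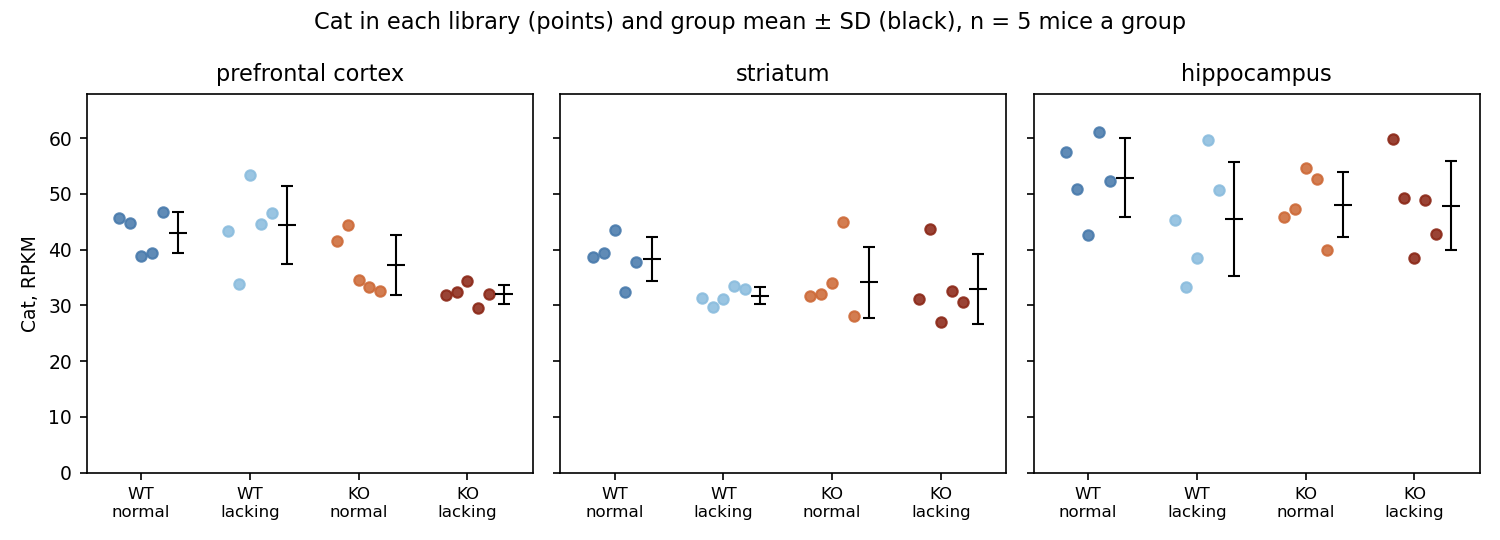
Cat in RPKM (vertical axis) for each library, by genotype and diet (horizontal axis), in the 3 regions; points are mice and black bars the group mean ± SD (n = 5). In prefrontal cortex the KO mice on the lacking diet sit between 29.5 and 34.4, while in striatum and hippocampus the 4 groups overlap.

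With both diets averaged, Cat was 1.28-fold lower in KO prefrontal cortex (log2 fold change -0.36, SE 0.07, 95% interval -0.51 to -0.21, edgeR quasi-likelihood test with Benjamini-Hochberg adjusted p = 0.0144). It was the single member called of 42, where 0.673% of all 13223 genes tested were called and 0.552% were called lower. The call was kept in all 6 alternative analyses and when any of the 20 libraries was left out, with adjusted p between 0.00075 and 0.0393 in the latter. On the lacking diet alone Cat was 1.42-fold lower in KO (log2 -0.50, SE 0.10, adjusted p = 0.0269 by edgeR), again the single member called, beside 0.234% of all genes called and 0.189% called lower. That second call was fragile: limma gave an adjusted p of 0.0871, and it was kept in only 2 of the 10 fits that left out a library of the groups compared, those without KO mouse 244 and WT mouse 226, with adjusted p from 0.0013 to 0.114 over the 10. On the normal diet the difference was -0.21 (SE 0.10, adjusted p = 0.926 by edgeR), and the interaction of genotype and diet was -0.29 (SE 0.15, adjusted p = 1). With KO on the lacking diet set against normally fed WT, the difference was -0.45 (SE 0.10), just outside the threshold in edgeR at an adjusted p of 0.0516, beside 0.28% of all genes called. In that comparison 5 of 7 alternative analyses placed Cat under the threshold.

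In striatum Cat averaged 38.4 ± 3.97 RPKM in WT mice on the normal diet, 31.7 ± 1.51 in WT on the lacking diet, 34.1 ± 6.40 in KO on the normal diet and 33.0 ± 6.28 in KO on the lacking diet (SD, n = 5). In hippocampus the same groups gave 52.9 ± 7.07, 45.5 ± 10.3, 48.1 ± 5.83 and 47.9 ± 8.01 RPKM. The KO differences with diets averaged were -0.01 (SE 0.09) in striatum and -0.03 (SE 0.10) in hippocampus, and neither was called. For the diet in WT striatum Cat gave -0.30 (SE 0.13, adjusted p = 1 by edgeR), and in WT prefrontal cortex 0.05 (SE 0.10). The difference of the KO effect between regions, tested over all 60 libraries in edgeR, was -0.35 (SE 0.13, adjusted p = 0.499) for prefrontal cortex minus striatum and -0.32 (SE 0.13, adjusted p = 0.799) for prefrontal cortex minus hippocampus. For these differences 0 of 42 members were called by edgeR, DESeq2 or limma (0% and 0.00718% of all genes in edgeR), and 0% of all genes between striatum and hippocampus. At an unadjusted p under 0.05 edgeR gave 2, 1 and 1 members (9.18%, 6.03% and 5.81% of all genes), DESeq2 2, 1 and 2 and limma 3, 1 and 4. The lower Cat level is therefore not shown to be particular to prefrontal cortex.

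Several other measures moved with genotype in prefrontal cortex. The summed level of 7 astrocyte markers was 9746 to 12620 CPM in WT and 8991 to 11370 CPM in KO, with 6 of 7 lower in KO and 1 of 7 called, Slc1a3 (log2 -0.33, adjusted p = 0.00678 by edgeR). That of 7 microglial markers was 246 to 294 CPM in WT and 213 to 260 in KO, with 5 of 7 lower and P2ry12 called (log2 -0.38, adjusted p = 0.0172 by edgeR). Markers of meninges and fibroblasts summed to 105 to 191 CPM in WT and 54.1 to 180 CPM in KO, with 6 of 6 lower and 0 called. The median library total was 12310267 counts in KO and 10100824 in WT, and the median RNA integrity number 8.65 and 8.35. The part of these measures in the Cat result was not tested.

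Among the NRF2 axis, Nfe2l2 came nearest to a call in prefrontal cortex. It measured 6.84, 6.96, 6.32, 5.71 and 7.39 RPKM in WT on the normal diet and 6.87, 6.12, 8.69, 5.87 and 7.58 in WT on the lacking diet. The KO values were 6.87, 7.61, 4.74, 6.77 and 5.40 RPKM on the normal diet and 5.72, 5.31, 5.18, 3.89 and 5.66 on the lacking diet. On the lacking diet each of the 5 KO mice lay below each of the 5 WT mice (log2 -0.47, SE 0.13, adjusted p = 0.144 by edgeR), and on the normal diet the genotypes overlapped (log2 -0.09, SE 0.13). How many of all genes lack overlap on the lacking diet is not given here, and 12.4% had an unadjusted p under 0.05 by edgeR. Without WT mouse 226 Nfe2l2 was called on the lacking diet together with Cat. No other fit that left out a library, and no alternative on the full data, called it there. With diets averaged the difference was -0.28 (95% interval -0.47 to -0.09, adjusted p = 0.168), against -0.13 (-0.27 to 0.02) in striatum and -0.10 (-0.30 to 0.09) in hippocampus. Keap1, the NRF2 inhibitor, gave estimates of -0.05, -0.05 and 0.04, with 95% intervals between -0.18 and 0.14 in the 3 regions.

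Gclc, Gclm, Txnrd1 and Srxn1, which NRF2 is known to drive, gave no called difference between KO and WT in any region. With diets averaged, Gclc, the catalytic subunit of glutamate-cysteine ligase, differed by -0.05 (95% interval -0.15 to 0.04) in prefrontal cortex, by less than 0.01 (-0.11 to 0.11) in striatum and by -0.02 (-0.10 to 0.06) in hippocampus. Its modifier subunit gene Gclm gave -0.01 (-0.15 to 0.13), 0.13 (-0.03 to 0.29) and -0.13 (-0.28 to 0.03) in the same order. The counts of Gclm are uncertain, because its exons overlap those of the pseudogene Gm6061 on the same strand. For Txnrd1, cytosolic thioredoxin reductase, the estimates were -0.02 (-0.14 to 0.11), 0.06 (-0.05 to 0.17) and 0.10 (-0.01 to 0.21). Srxn1, the sulfiredoxin that repairs overoxidised peroxiredoxins, gave 0.06 (-0.06 to 0.17), -0.0032 (-0.14 to 0.14) and 0.07 (-0.08 to 0.23). For these 4 genes every interval lay between -0.28 and 0.29 in the fit of all libraries. The hippocampal values depended on the libraries used: without the 8 in which Ttr reached 100 CPM, an alternative added after the data were seen, Gclm moved to -0.28 with diets averaged (adjusted p = 0.385 by edgeR) and, on the normal diet, from -0.27 to -0.46 (adjusted p = 0.0947). The same step moved Nfe2l2 from -0.10 to -0.28 (adjusted p = 0.393) and Srxn1 from 0.07 to 0.13 (adjusted p = 0.606) with diets averaged.

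Of the other genes of the axis, Nqo1, a quinone reductase with 7 to 55 counts per library, gave -0.22 (95% interval -0.67 to 0.22) in prefrontal cortex, -0.02 (-0.34 to 0.29) in striatum and -0.15 (-0.59 to 0.29) in hippocampus. Hmox1, with 4 to 30 counts, gave 0.08 (-0.47 to 0.62), -0.18 (-0.66 to 0.30) and -0.32 (-0.73 to 0.09). Slc7a11, the cystine importer that feeds glutathione synthesis, gave -0.21 (-0.44 to 0.01), 0.02 (-0.15 to 0.19) and -0.09 (-0.26 to 0.09). Without the 8 hippocampal libraries high in Ttr, Nqo1 moved from -0.15 to -0.27 (adjusted p = 0.672 by edgeR) and Slc7a11 from -0.09 to -0.21 (adjusted p = 0.451). Gsr, glutathione reductase, gave 0.10 (-0.03 to 0.23), 0.06 (-0.06 to 0.18) and -0.01 (-0.15 to 0.13). For Gss the estimates were 0.13 (-0.22 to 0.49), -0.12 (-0.45 to 0.22) and 0.30 (0.01 to 0.59), the last with an adjusted p of 1 by edgeR. Some of these small estimates change sign with the scaling, as is detailed in the closing section.

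**Figure D2:**
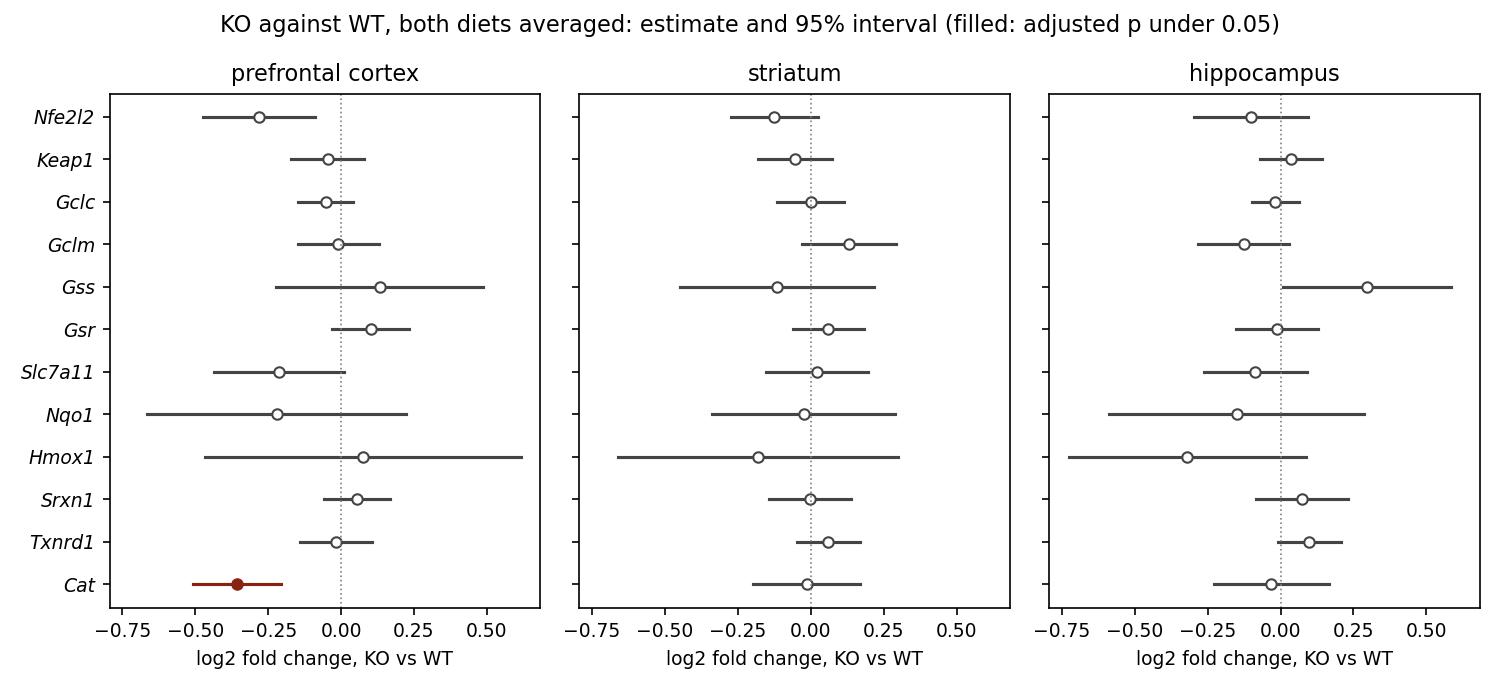
Log2 fold change of KO against WT with both diets averaged (horizontal axis) for the 11 NRF2-axis and glutathione genes and Cat (vertical axis), with 95% intervals from edgeR, in the 3 regions; filled symbols passed the adjusted threshold. Cat in prefrontal cortex is the filled symbol, and the intervals of Nqo1, Hmox1 and Gss are the widest.

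Over all 42 members with diets averaged, the 95% interval of the KO effect lay within 1.5-fold in either direction for 37 in prefrontal cortex, 37 in striatum and 36 in hippocampus. The genes outside it were mostly those of low count, among them Gpx7, Hmox1, Nqo1, Sod3 and Txnrd2 in prefrontal cortex. At an unadjusted p under 0.05, 7 of 42 members were found in prefrontal cortex by edgeR, beside 14.1% of all genes, 7 by DESeq2 and 5 by limma. The median log2 fold change of the members was -0.03 and their median absolute change 0.08, the same absolute size as over all genes (0.08).

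In striatum edgeR called 0 of 42 members between KO and WT with diets averaged (0.203% of all genes), with 1 at an unadjusted p under 0.05 by edgeR (5.78% of all genes), 2 by DESeq2 and 4 by limma. The smallest p-values were those of Sod3 (log2 -0.35, SE 0.16, adjusted p = 0.74) and Hmox2, the constitutive heme oxygenase (-0.11, SE 0.05, adjusted p = 0.74). The counts of Hmox2 are uncertain, because its exons overlap those of Cdip1 on the opposite strand and the strand setting of the counting is not given in the sources used here. In hippocampus 0 of 42 were called (0.164% of all genes), with 2 at an unadjusted p under 0.05 by edgeR (4.24% of all genes) and 3 each by DESeq2 and limma. There Gpx8, an endoplasmic reticulum peroxidase, had the smallest p (-0.50, SE 0.19, adjusted p = 0.997), followed by Gss (0.30, SE 0.14, adjusted p = 1). On single diets 0 of 42 were called in striatum (0.0601% of all genes on the normal and 0.128% on the lacking diet), in hippocampus (0.0299% and 0.0672%) and in prefrontal cortex on the normal diet (0.121%). On the normal diet edgeR gave 1, 0 and 3 members at an unadjusted p under 0.05 in prefrontal cortex, striatum and hippocampus (5.37%, 2.43% and 7.48% of all genes), DESeq2 0, 0 and 4 and limma 1, 0 and 2. On the lacking diet edgeR gave 7, 1 and 3 (12.4%, 4.58% and 6.02%), DESeq2 7, 1 and 4 and limma 6, 1 and 2.

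A total of 3 members were lower in KO in all 6 combinations of region and diet: Gpx8, Nfe2l2 and Prdx6, a peroxiredoxin that also acts on phospholipids. That is 7.14% of the members, against 2.65% of 12847 genes tested in all regions, and 0 members were higher in all 6, against 1.75%. The 6 combinations share mice across regions. Prdx6 differed by small amounts, from -0.12 (SE 0.07) in prefrontal cortex on the normal diet to -0.02 (SE 0.07) in striatum on the normal diet, and none of the 6 values passed the threshold.

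Setting KO mice on the lacking diet beside normally fed WT mice combines both conditions. In prefrontal cortex 0 of 42 members were called by edgeR and 5 had an unadjusted p under 0.05, beside 13% of all genes, with 6 each by DESeq2 and limma. Gpx4, the peroxidase that reduces lipid peroxides in membranes, measured 21.3, 25.2, 22.6, 25.1 and 21.2 RPKM in KO on the lacking diet and 17.4, 20.9, 17.7, 15.9 and 16.7 in WT on the normal diet, without overlap. Its log2 difference of 0.36 (SE 0.10) had an adjusted p of 0.0887 by edgeR, and it was called by DESeq2 (adjusted p = 0.0279) and with RNA integrity as covariate (adjusted p = 0.0487). In this comparison DESeq2 called 142 of all 13223 genes and edgeR 37. The share of all genes without overlap in it is not given here. Of the 75-base stretches of Gpx4 transcripts, 29.8% also occur in other genes, mainly the pseudogene Gpx4-ps2, so its counts are uncertain. Prdx3, the mitochondrial peroxiredoxin, gave -0.27 (SE 0.11, adjusted p = 0.268).

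In striatum the same comparison called 0 of 42 (0.0826% of all genes; 2 at an unadjusted p under 0.05 by edgeR, 5.06% of all genes, and 4 each by DESeq2 and limma). The smallest p-values there were those of Txn2, mitochondrial thioredoxin (-0.24, SE 0.10, adjusted p = 0.914), and Gstm5 (-0.22, SE 0.09, adjusted p = 0.914). In hippocampus it called 0 of 42 (0.0149% of all genes; 2 at an unadjusted p under 0.05 by each of edgeR, DESeq2 and limma, beside 3.62% of all genes). Gpx8 measured 10.9, 11.6, 6.12, 9.49 and 7.74 RPKM in WT on the normal diet and 6.61, 5.22, 4.17, 4.37 and 5.00 in KO on the lacking diet. The ranges overlapped through a single pair of values, and the log2 difference of -0.84 (SE 0.27) had an adjusted p of 1 by edgeR. Choroid plexus markers also had lower estimates in this comparison, 6 of 6 with a median log2 difference of -1.497 and 0 called. Their sum was 31.1 to 405 CPM in KO on the lacking diet and 37.0 to 1125 CPM in WT on the normal diet. The medians of these sums ran the other way, at 58.7 and 43.9 CPM. The part of the choroid plexus markers in the Gpx8 difference was not tested. Without the 8 libraries in which Ttr reached 100 CPM, an alternative added after the data were seen, the Gpx8 difference was -0.77 (adjusted p = 0.75 by edgeR), and with diets averaged -0.53 (adjusted p = 0.393). Txnrd1 had the next smallest p (0.16, SE 0.07, adjusted p = 1).

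No member was called for the diet. In all 9 diet and interaction comparisons edgeR called 0 of 42 members, and it called 0% of all genes there as well. At an unadjusted p under 0.05 edgeR gave 1, 2 and 2 members for the diet in WT prefrontal cortex, striatum and hippocampus (2.27%, 2.91% and 4.03% of all genes), where DESeq2 gave 1, 3 and 2 and limma 1, 2 and 2. In KO mice edgeR gave 5, 0 and 2 (5.19%, 1.68% and 6.56%), DESeq2 5, 0 and 3 and limma 4, 0 and 2. For the interaction edgeR gave 3, 0 and 3 (3.17%, 1.7% and 9.45%), DESeq2 4, 0 and 4 and limma 3, 0 and 3.

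Among the diet comparisons the largest estimate was that of Gpx7 in WT prefrontal cortex. This peroxidase of the endoplasmic reticulum measured 0.943, 1.36, 1.09, 1.75 and 1.02 RPKM on the normal and 0.408, 1.35, 0.357, 0.576 and 0.452 on the lacking diet, with 4 to 23 counts per library (log2 -0.92, SE 0.36, adjusted p = 1 by edgeR). One mouse on the lacking diet lay within the range of the normal diet. Gstp1, a pi-class glutathione transferase, had the smallest p in WT striatum (-0.48, SE 0.18, adjusted p = 1), and 29.2% of its 75-base stretches are shared with other genes, mainly Gstp2. Glrx2, a mitochondrial glutaredoxin, had it in WT hippocampus (-0.17, SE 0.07, adjusted p = 0.965).

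In KO mice the smallest p for the diet belonged to Prdx3 in prefrontal cortex (-0.26, SE 0.11, adjusted p = 0.911), Prdx4, the peroxiredoxin of the secretory pathway, in striatum (0.25, SE 0.14, adjusted p = 1) and Txnip, the inhibitor of thioredoxin, in hippocampus (-0.44, SE 0.16, adjusted p = 0.719). The interactions with the smallest p were Txnrd2 in prefrontal cortex (0.76, SE 0.30, adjusted p = 1), Gss in striatum (0.60, SE 0.32, adjusted p = 1) and Glrx2 in hippocampus (0.24, SE 0.10, adjusted p = 0.514). Txnrd2 in prefrontal cortex averaged 1.04 ± 0.391 RPKM in WT on the normal diet, 0.827 ± 0.111 in WT on the lacking diet, 1.00 ± 0.169 in KO on the normal diet and 1.38 ± 0.223 in KO on the lacking diet (SD, n = 5). On the lacking diet its KO values all lay above its WT values (log2 0.71, SE 0.21, adjusted p = 0.166 by edgeR). The share of all genes without overlap there is not given here, and 12.4% had an unadjusted p under 0.05 by edgeR. The counts of Txnrd2 and Gss are uncertain, because some of their exons overlap other genes and the strand setting of the counting is not given in the sources used here.

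**Figure D3:**
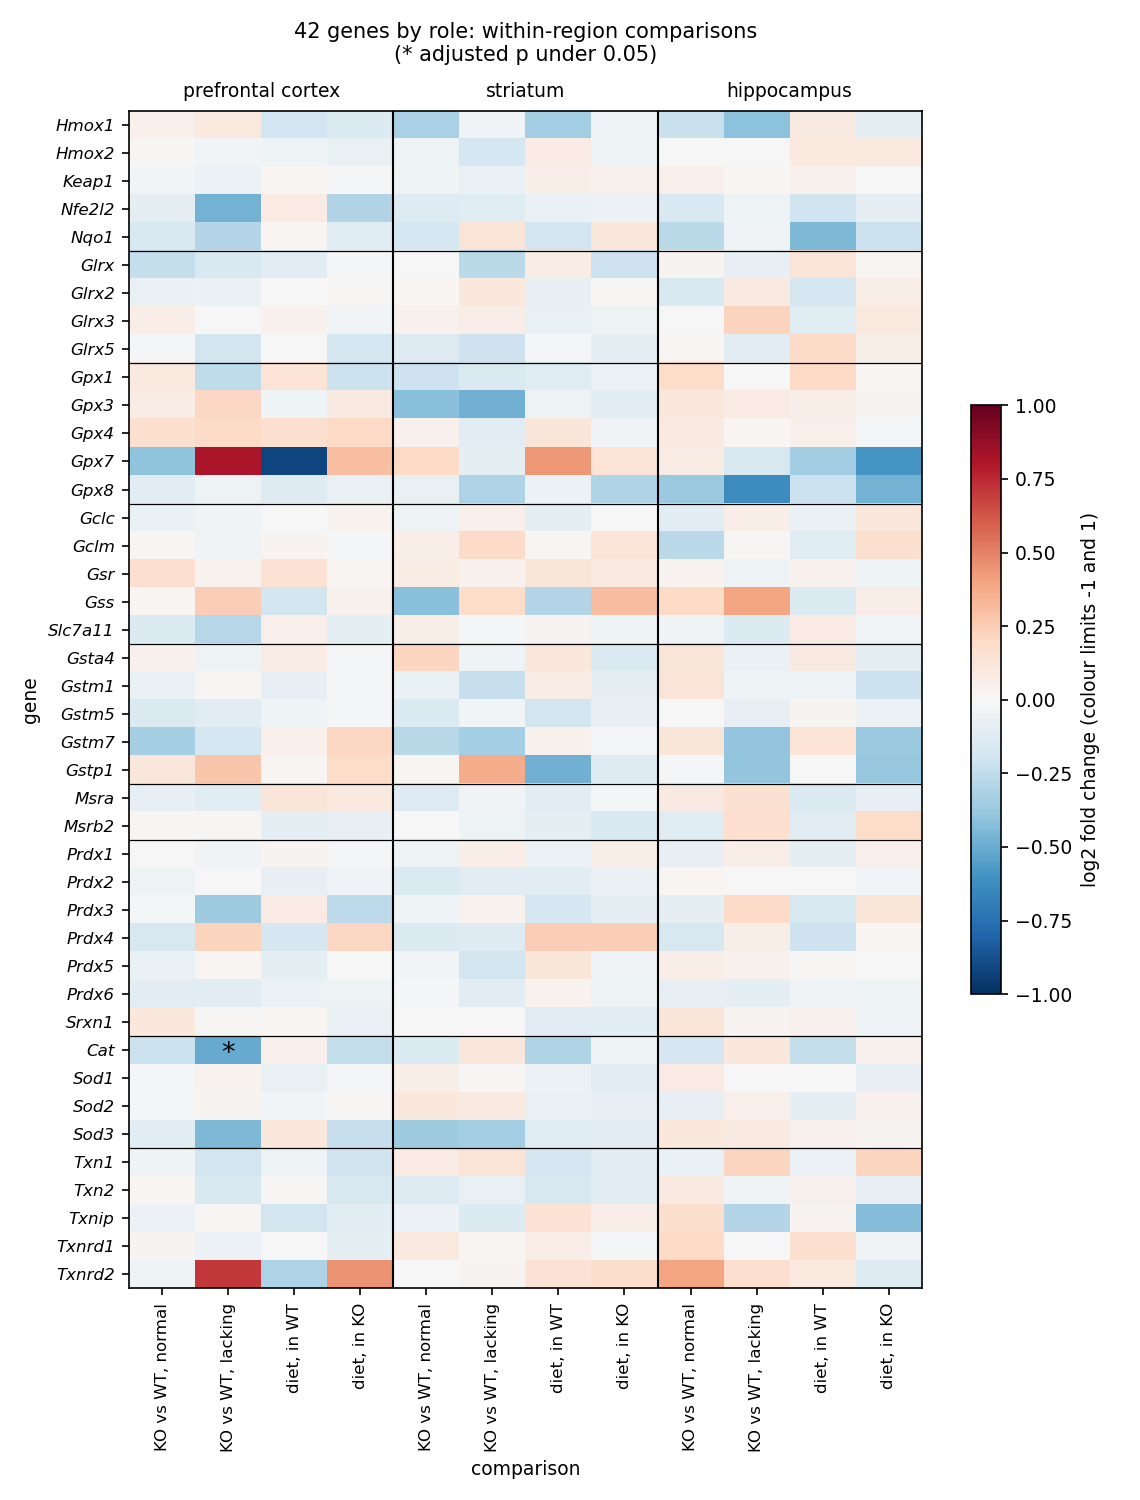
Log2 fold changes (colour, limits -1 and 1) of the 42 genes (rows, ordered by role) in the KO and diet comparisons of each region (columns); the asterisk marks an adjusted p under 0.05 in edgeR. The asterisk is Cat on the lacking diet in prefrontal cortex. The strongest colour is that of Gpx7 for the diet in WT prefrontal cortex (-0.92), a gene with 4 to 30 counts per library. Other strong colours belong to genes with more counts, among them Txnrd2 in prefrontal cortex (24 to 92) and Gpx8 in hippocampus (42 to 165).

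Most members differed between brain regions. With the 4 groups averaged and all 60 libraries fitted in edgeR, 28 of 42 members differed between prefrontal cortex and striatum (69.9% of all 13930 genes), 15 higher and 13 lower in cortex (34% and 35.9% of all genes). Between prefrontal cortex and hippocampus 24 differed (59.3% of all genes), 8 higher and 16 lower in cortex (29.1% and 30.2%). Between striatum and hippocampus 29 differed (66.4%), 10 higher and 19 lower in striatum (33.6% and 32.9%). Their share is near that of all genes, and their median absolute log2 differences were 0.23, 0.16 and 0.25, against 0.30, 0.21 and 0.26 over all genes. A total of 35 members were called in at least 1 pair and 12 in all 3, and 14 were called with a difference of at least 1.5-fold in some pair. The shares of all genes that meet these 3 rules were not computed, so the counts are not read as a trait of the members. The share of all genes whose libraries do not overlap between regions is not given here either. The 7 called in no pair were Glrx5, Gpx4, Gpx7, Gstp1, Hmox1, Sod2 and Sod3.

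**Figure D4:**
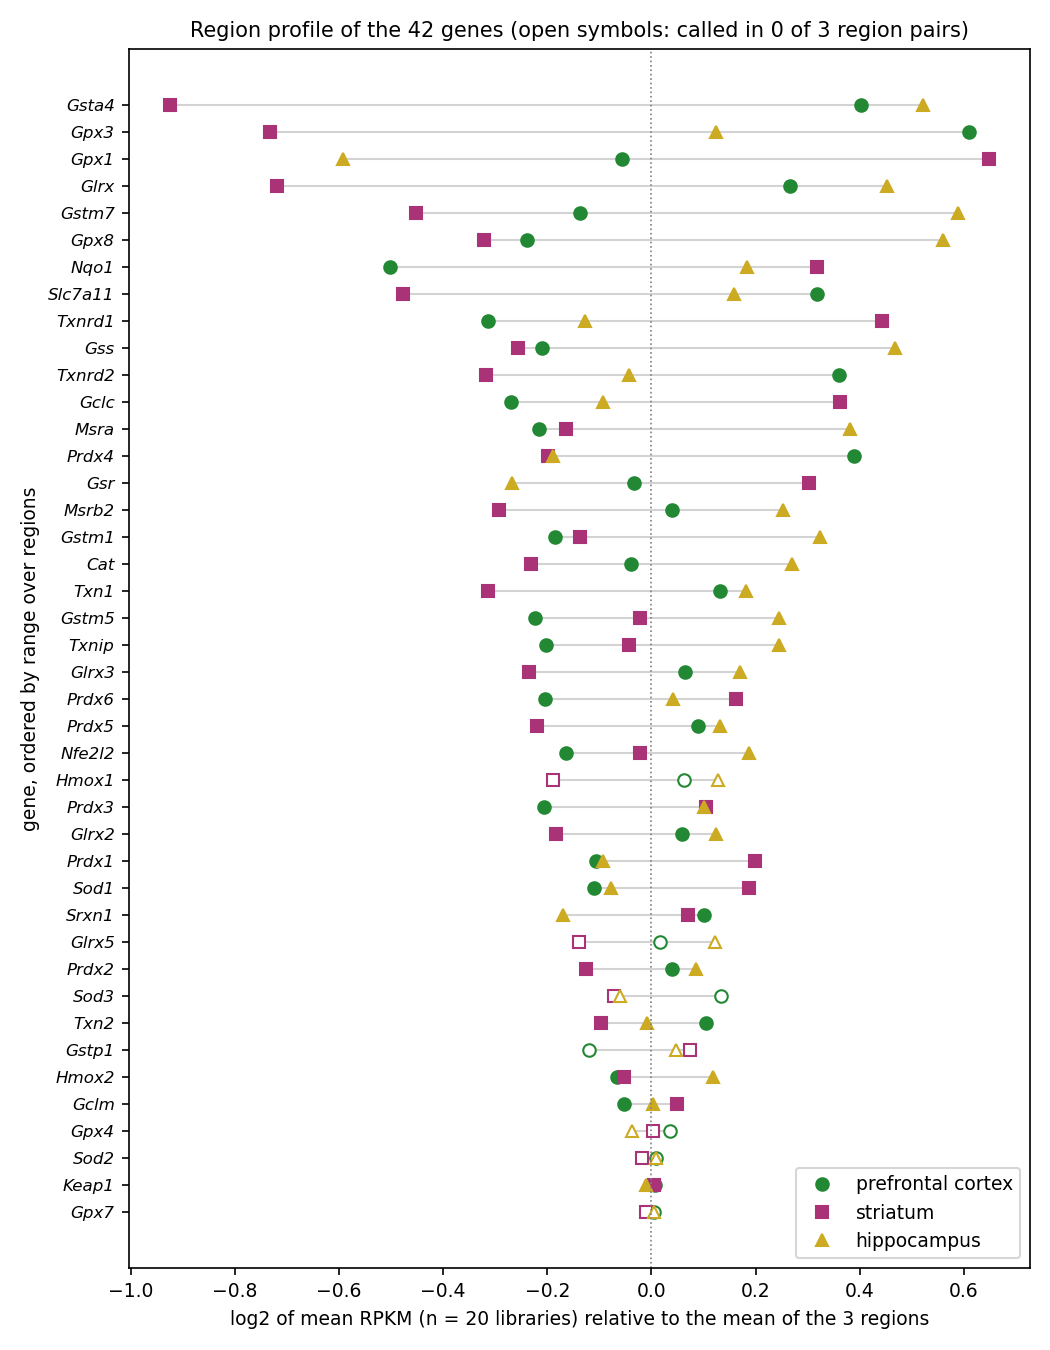
Log2 of the mean RPKM in each region (n = 20 libraries) relative to the mean over the 3 regions (horizontal axis) for the 42 genes, ordered by their range (vertical axis); open symbols mark the 7 genes called in none of the 3 pairs. Gsta4, Gpx3, Gpx1 and Glrx spread widest, and Sod2, Keap1 and Gpx7 lie near 0 in every region.

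Among superoxide and peroxide enzymes, Sod1 was higher in striatum than in prefrontal cortex (log2 difference of cortex against striatum -0.32, SE 0.03) and hippocampus (0.35 for striatum against hippocampus, SE 0.03), both called. Cat ran the other way, with hippocampus at 48.6, cortex at 39.2 and striatum at 34.3 RPKM on average, and all 3 pairs were called, including the smallest difference of 0.16 (SE 0.07, adjusted p = 0.0278 by edgeR).

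The glutathione peroxidases differed in their region profiles. Gpx1, the ubiquitous cytosolic form, ranged from 18.1 to 44.1 RPKM in striatum (median 34.6), from 14.97 to 23.9 in prefrontal cortex (21.2) and from 8.75 to 18.1 in hippocampus (13.8). Striatum exceeded hippocampus by 1.32 on the log2 scale (SE 0.08, adjusted p = 2.25e-21 by edgeR), and the lowest striatal and the highest hippocampal libraries were both at 18.1 RPKM. Gpx3, the secreted form, was ordered differently: 2.35 to 5.56 RPKM in prefrontal cortex (median 3.43), 1.18 to 3.498 in hippocampus (2.60) and 0.564 to 2.698 in striatum (1.33). Its difference of cortex against striatum was 1.33 (SE 0.13). Gpx8 was highest in hippocampus, at 4.17 to 13.6 RPKM against 2.61 to 5.72 in prefrontal cortex and 2.30 to 5.75 in striatum, with log2 differences of -0.70 (SE 0.12) for cortex and -0.77 (SE 0.12) for striatum against it.

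Gpx8 in hippocampus differed between libraries with more and less choroid plexus RNA, whose part in the result was not tested. Its median was 9.12 RPKM in the 8 hippocampal libraries in which Ttr reached 100 CPM and 5.47 RPKM in the other 12. Without those 8 libraries the differences fell to -0.42 and -0.50 and were still called. The same step also lowered the difference of Nqo1 between cortex and hippocampus from -0.61 to -0.38, still called, and raised Nqo1 in striatum against hippocampus from 0.24 to a called 0.46 (adjusted p = 0.00671 by edgeR). Sod3 and Gpx4 in cortex against hippocampus were then also called, at 0.41 and 0.16. In striatum against hippocampus 5 calls were lost, those of Gclm, Hmox2, Keap1, Prdx2 and Txnip.

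The glutathione supply genes were split by region. Gclc ranged from 40.9 to 53.4 RPKM in striatum, above all libraries of prefrontal cortex (26.5 to 31.8) and hippocampus (30.0 to 35.0). The log2 differences were -0.66 (SE 0.03) for cortex against striatum and 0.54 (SE 0.03) for striatum against hippocampus. Gsr had the same order at the top, with 14.2 ± 1.23 RPKM in striatum, 11.3 ± 1.11 in prefrontal cortex and 9.59 ± 0.851 in hippocampus (SD, n = 20), and a difference of 0.65 (SE 0.04) between striatum and hippocampus. Slc7a11 was lowest in striatum, at 4.96 ± 0.580 RPKM against 8.60 ± 1.73 in cortex and 7.70 ± 1.06 in hippocampus. Gss was highest in hippocampus, at 1.11 ± 0.258 RPKM against 0.695 ± 0.194 in cortex and 0.673 ± 0.196 in striatum; its difference between cortex and hippocampus was -0.61 (SE 0.11), and the estimate for cortex against striatum was 0.03 (SE 0.12). Gclm averaged 14.6 to 15.7 RPKM and was called higher in striatum than in cortex (-0.13 for cortex against striatum, SE 0.06) and hippocampus (0.13, SE 0.06).

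In the thioredoxin and glutaredoxin systems, Txnrd1 was highest in striatum, where its 17.1 to 21.0 RPKM did not overlap with prefrontal cortex (9.28 to 12.6) or hippocampus (11.1 to 14.6), with differences of -0.78 (SE 0.04) and 0.65 (SE 0.04). Its substrate gene Txn1 ran the other way, with 25.1 ± 4.65 RPKM in striatum, 34.2 ± 5.41 in cortex and 35.4 ± 5.18 in hippocampus. Glrx, the cytosolic glutaredoxin, was also lowest in striatum, at 2.82 to 6.001 RPKM, against 5.14 to 9.91 in cortex and 7.09 to 11.8 in hippocampus (log2 differences of 0.96 and -1.09, SE 0.07 each). Glrx2 and Glrx3 were called in the same direction in both pairs with striatum. Between cortex and hippocampus 0 of 4 glutaredoxin genes were called, beside 59.3% of all genes. Glrx gave -0.13 there (SE 0.07, adjusted p = 0.1 by edgeR). With 4 genes the count is not read as a trait of the glutaredoxins. The counts of Glrx3 are uncertain, because 12.1% of its 75-base stretches also occur in Gm12669.

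The peroxiredoxins were mixed. Prdx1 and Prdx6 were called higher in striatum than in both other regions, whereas Prdx2 and Prdx5 were called lower there than in both. The counts of Prdx2, whose exons overlap those of Rnaseh2a and Junb on the opposite strand, and of Prdx5, whose exons overlap those of Trmt112, are uncertain for the same reason as those of Hmox2. Prdx3 was called lower in prefrontal cortex than in striatum (-0.34, SE 0.06) and hippocampus (-0.25, SE 0.06). Prdx4 was highest in prefrontal cortex, at 3.86 to 6.85 RPKM, against 2.36 to 4.36 in striatum and 2.46 to 4.56 in hippocampus (log2 differences of 0.57 and 0.64, SE 0.07 each). Their repair enzyme gene Srxn1 was lowest in hippocampus, at 16.2 ± 1.98 RPKM against 19.5 ± 1.77 in cortex and 19.1 ± 2.40 in striatum (SD, n = 20).

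Of 5 glutathione transferase genes, 4 were called lower in striatum than in hippocampus, beside 32.9% of all genes. Gstp1 was called in no pair. With 5 genes this count is not read as a trait of the transferases. Gsta4, an alpha-class transferase known for conjugating the lipid peroxidation product 4-hydroxynonenal, gave the largest difference between striatum and hippocampus of all members. It ranged from 7.20 to 11.9 RPKM in the 20 striatal libraries, below every cortical library (19.6 to 29.2) and every hippocampal library (17.99 to 32.6). The log2 difference was 1.30 (SE 0.06) for cortex against striatum and -1.36 (SE 0.06, adjusted p = 1.97e-30 by edgeR) for striatum against hippocampus, while cortex and hippocampus were not separated (-0.06, SE 0.05). Gstm7 averaged 7.18 ± 1.498 RPKM in hippocampus, 4.34 ± 0.863 in cortex and 3.49 ± 0.991 in striatum, with differences of -0.67 (SE 0.09) for cortex and -0.96 (SE 0.10) for striatum against hippocampus. Gstm1 and Gstm5 were also called higher in hippocampus than in either other region. The counts of Gstm1 are uncertain, because 11.7% of its 75-base stretches also occur in other genes.

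**Figure D5:**
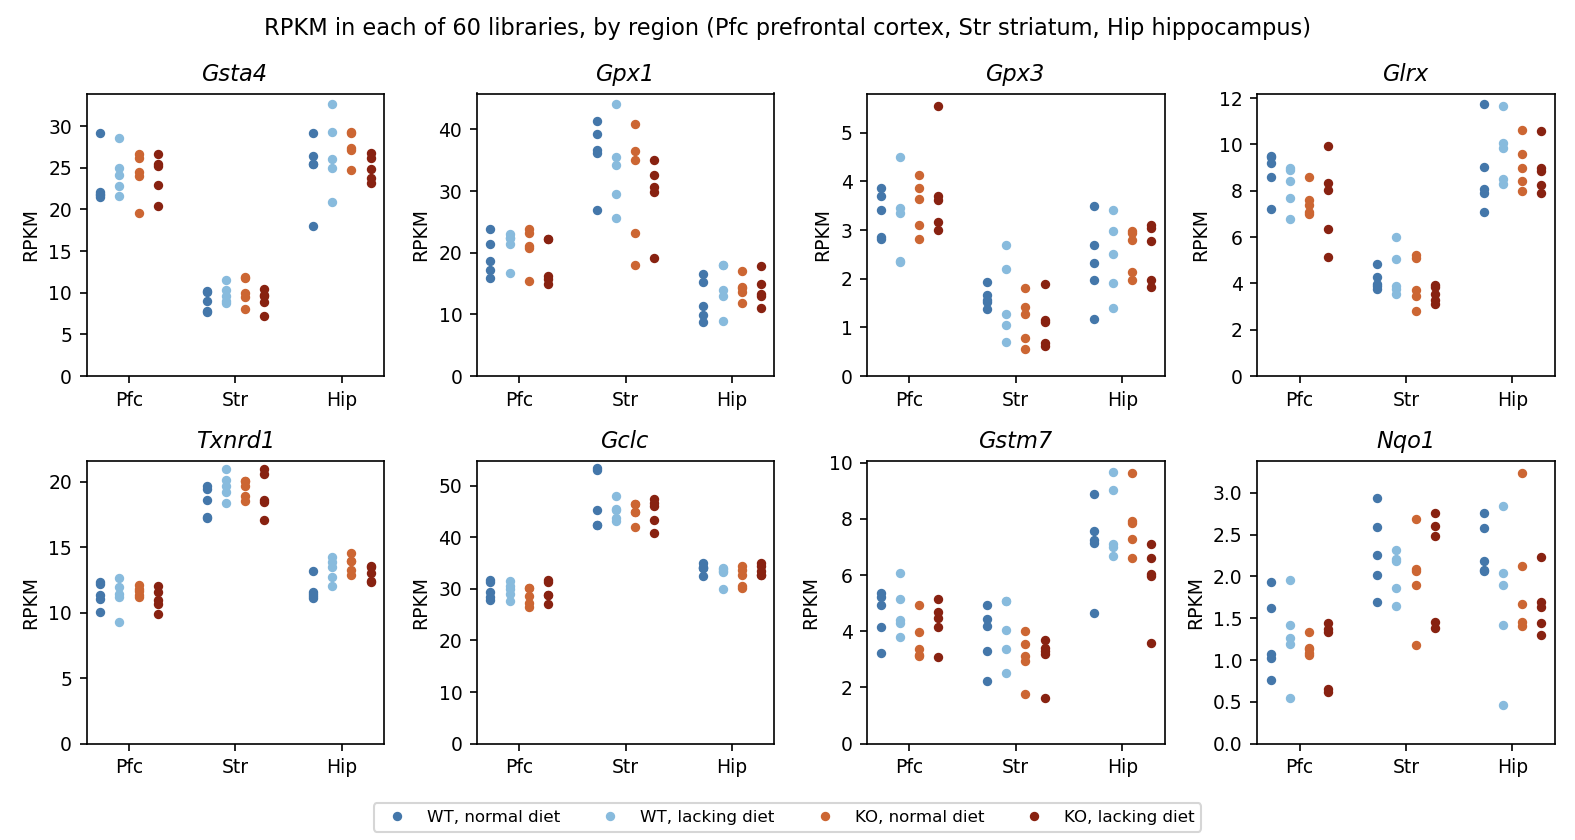
RPKM of 8 genes (vertical axes, from 0) in each of the 60 libraries, by region (horizontal axis) and coloured by genotype and diet. Striatal libraries stand apart for Gsta4 (7.20 to 11.9), Txnrd1 (17.1 to 21.0) and Gclc (40.9 to 53.4) in all 4 groups.

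Within the NRF2 axis, Nfe2l2 was lowest in prefrontal cortex (6.27 ± 1.13 RPKM), against 6.92 ± 0.763 in striatum and 8.00 ± 1.24 in hippocampus (SD, n = 20), and both differences from cortex were called (-0.17, SE 0.06 and -0.30, SE 0.06). Nqo1 showed the same low in cortex, at 1.20 ± 0.386 RPKM against 2.12 ± 0.484 and 1.93 ± 0.636, with a difference of -0.85 (SE 0.14) from striatum. Keap1 averaged 8.42 to 8.52 RPKM in the 3 regions. The methionine sulfoxide reductase genes Msra and Msrb2, which repair oxidised methionine, were both highest in hippocampus, at 7.77 ± 1.30 and 12.7 ± 1.35 RPKM.

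Markers of cell types also differed between regions. All 7 oligodendrocyte markers were called higher in striatum than in prefrontal cortex (median log2 -1.34 for cortex against striatum) and than in hippocampus (0.45), and 5 of 7 astrocyte markers were called lower in striatum than in hippocampus (median over the 7 of -0.45). Of the astrocyte markers 6 of 7 were called higher in prefrontal cortex than in striatum (median 0.20), and of the neuronal markers 5 of 6 (0.81). All 6 markers of meninges and fibroblasts were called lower in striatum than in prefrontal cortex (0.98 for cortex against striatum) and than in hippocampus (-1.38). Microglial markers were called higher in striatum than in hippocampus in 6 of 7 cases (0.36). Choroid plexus markers were called lower in prefrontal cortex than in hippocampus in 6 of 6 (-4.77) and lower in striatum than in hippocampus in 5 of 6 (-4.93). The part of these differences in the region profiles was not tested.

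A list of 72 related symbols, of other NRF2 targets and partners, NADPH enzymes, iron and heme proteins and further transferases, had 68 genes in the table, of which 56 were tested in prefrontal cortex, 58 in striatum and 57 in hippocampus. With diets averaged, edgeR called 0 of them between KO and WT in any region, and at an unadjusted p under 0.05 the counts were 12, 2 and 2 in prefrontal cortex, striatum and hippocampus, beside 14.1%, 5.78% and 4.24% of all genes. The smallest adjusted p belonged to Txndc17 in prefrontal cortex (-0.24, SE 0.07, adjusted p = 0.102). Between regions 41 of 59 differed for prefrontal cortex and striatum (69.9% of all genes; 22 higher and 19 lower in cortex), 30 for prefrontal cortex and hippocampus (59.3%; 17 and 13) and 37 for striatum and hippocampus (66.4%; 13 and 24).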

How the data were processed

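Per the labels' protocols, mRNA was selected from total RNA and sequenced as 75-bp single reads. The submitters' processing notes name STAR 2.7.1a, HTSeq 0.9.1 and build mm10; the annotation and strand setting are not given in the sources used here. The authors deposited raw counts per gene and RPKM values for 60 libraries; 18514 genes with counts gave RPKM equal to count over gene length and column total, and 0 value columns were unmatched. Gene positions are from GENCODE annotation of GRCm38 (the mm10 assembly) and promoters from RefSeq.

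Counts were fitted per region (20 libraries, 4 groups) with edgeR 4.0.16 in R 4.3.3: TMM, filterByExpr (minimum count 10, minimum total 15), quasi-likelihood F-tests, two-sided, Benjamini-Hochberg over all genes tested, threshold 0.05. Region contrasts and differences of the KO effect used all 60 libraries. Standard errors come from the F statistics. CPM were computed from the deposited counts with TMM factors, except for Ttr and the filter at a mean of 1 CPM, which used library totals alone. Without TMM factors 3 counts correspond to 0.215 to 0.393 CPM, counting error only. Steps were tested on simulated data.

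Alternatives were DESeq2 1.42.0, limma 3.58.1 on log2(RPKM + 1), no TMM, no filter, a mean of 1 CPM, RNA integrity as covariate, only the groups compared, mouse as a block, each replicate left out and, added after seeing the data, no hippocampal libraries with Ttr of at least 100 CPM. The mouse number in the titles pairs libraries across regions: deviations of the same mouse correlated by 0.03 to 0.07 on average and of different mice by -0.02 to -0.01.

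Named members were those called within a region, those with the smallest p in each comparison (2 for KO averages and KO lacking against WT normal, 1 for diet and interaction), the 3 largest region differences in each direction, and 11 NRF2 and glutathione genes; other members are named by role and were chosen after their values were seen. The value of 1 marker gene is not reported here. Members and lists were chosen with earlier results of these data known.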

Additional observations from a re-analysis of the deposited data

Results flagged for a closer look

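For Cat and the 11 NRF2-axis and glutathione genes, 144 groups of 5 libraries were examined, and in 13 of them 1 library lay far from the other 4, its gap being over 0.71 of the group's range. Chance gives about 7.2 such groups, or 1 in 20. No explanation was tested, and all values are RPKM.

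In prefrontal cortex, Gclm measured 18.1 in KO mouse 368 on the normal diet (others 13.2 to 14.1) and 16.8 in WT mouse 317 on the normal diet (others 13.7 to 14.2). In KO mice on the normal diet Gss was 0.953 in mouse 381 (others 0.596 to 0.693) and Hmox1 was 0.534 in mouse 268 (others 1.01 to 1.14). In striatum, Slc7a11 was 6.05 in KO mouse 452 on the lacking diet (others 4.50 to 4.63) and 4.57 in KO mouse 390 on the normal diet (others 5.07 to 5.17).

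In hippocampus, WT mouse 226 on the lacking diet stood low for both Gclc, at 29.99 (others 33.2 to 34.0), and Gss, at 0.447 (others 0.971 to 1.18). Hmox1 was 1.575 in WT mouse 241 on the lacking diet (others 0.912 to 1.01). Nfe2l2 was 7.84 in WT mouse 273 on the normal diet (others 8.90 to 9.15), and Txnrd1 13.2 in WT mouse 272 on the normal diet (others 11.1 to 11.6). Gclm was 15.6 in KO mouse 267 on the normal diet (others 13.27 to 13.86), and Gss 1.48 in KO mouse 242 on the lacking diet (others 1.14 to 1.21).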

How the results depend on the processing

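Of the 21 comparisons within regions, 18 had 0 members called under every alternative on the full data. For KO on the lacking diet set beside normally fed WT in prefrontal cortex, edgeR called 0 members. DESeq2 called 2 (Cat and Gpx4), as did the fit with RNA integrity as covariate. The fits with only the groups compared, without TMM or without the filter called 1 (Cat). Leaving out libraries gave 0 to 1. Of all 13223 genes, edgeR called 37, DESeq2 142 and limma 21 in this comparison. The counts over all genes in the other fits are not given here. For KO against WT on the lacking diet in prefrontal cortex, limma called 0 members instead of 1, beside 17 of 13223 genes instead of 31. Leaving out libraries gave 0 to 2 members there. With only WT mice on the normal diet, 10 members instead of 24 differed between prefrontal cortex and hippocampus, and 18 instead of 29 between striatum and hippocampus. Between prefrontal cortex and striatum 21 instead of 28 differed. Fewer samples were used, and the shares of all genes called in this fit are not given here. In the replicate block fit by mouse, region pairs gave 28, 24 and 29 calls, all the same genes, and the block changed no other call, with 0 KO effects called as differing between regions.

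Small KO estimates that changed sign, none past the threshold, were Gclc in striatum (-0.012 with RNA integrity, -0.040 without TMM, -0.036 with limma, -0.0005 at a mean of 1 CPM, -0.0034 without the filter), Gclm in prefrontal cortex (0.0073 without TMM, 0.0036 with limma), Slc7a11 in striatum (-0.018 without TMM, -0.0099 with limma), Srxn1 in striatum (0.0015 with DESeq2, 0.0055 with RNA integrity) and Txnrd1 in prefrontal cortex (0.0029 with limma). Leaving out 1 library changed the sign of Gclc (-0.024 to 0.029), Nqo1 (-0.089 to 0.027), Slc7a11 (-0.034 to 0.063) and Srxn1 (-0.036 to 0.027) in striatum, Gclm (-0.057 to 0.028), Hmox1 (-0.056 to 0.235) and Txnrd1 (-0.043 to 0.0055) in prefrontal cortex, and Gsr (-0.033 to 0.038) in hippocampus. The cause was not tested. Hmox1 had 4 to 30 counts per library, and how far depth limits its values was not tested.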

Other observations

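In the list of related genes, the largest differences between regions belonged to genes chosen here after their values were seen. Gpx6, a glutathione peroxidase, had 31 to 91 counts in each of the 20 striatal libraries (median 4.08 RPKM), whereas 15 of 20 prefrontal and 18 of 20 hippocampal libraries were at 0, with 8 and 3 counts in all. Oxr1, an oxidation resistance gene, was lowest in striatum, at 32.6 to 45.6 RPKM against 111 to 148 in prefrontal cortex and 86.8 to 108 in hippocampus. Sesn3, a sestrin, was highest in striatum, at 37.4 to 44.5 RPKM against 20.5 to 26.8 in prefrontal cortex and 12.96 to 17.5 in hippocampus. Gstm6, a mu-class transferase, was highest in hippocampus, at 1.51 to 3.56 RPKM against 0.790 to 1.67 in striatum and 0.174 to 0.898 in prefrontal cortex. The striatal libraries did not overlap with the other regions for Gpx6, Oxr1 and Sesn3. For Gstm6 hippocampus did not overlap with prefrontal cortex but overlapped with striatum.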
